A study of Rattus norvegicus with 32 samples.

Results

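The 5 genes Cdkn1a (ENSRNOG00000000521), Gadd45a (ENSRNOG00000005615), Gadd45b (ENSRNOG00000019822), Gadd45g (ENSRNOG00000013090) and Sesn1 (ENSRNOG00000000302) were followed through hippocampal RNA of 32 rats, in which 23822 genes were measured. They were taken by name, as p21, the GADD45 family and Sestrin 1. R237H rats carry 1 mutant allele of Gfap (genotype Gfap+/R237H, Crl:CD(SD) background), a missense change in glial fibrillary acidic protein of the kind that causes Alexander disease, and the WT rats were their littermates. The allele is the animal's own Gfap gene and not a transgene, so it is under Gfap's own promoter in astrocytes and any other cell that uses Gfap. At P56 the groups were 4 R237H males, 4 WT males, 4 R237H females and 4 WT females. At P21 they were 4 R237H males, 4 WT males, 5 R237H females and 3 WT females. Rats are named here as in their labels, s with a number and letter at P56 and R with a number and letter at P21. The question was how these transcripts differ between R237H and WT rats at an early (P21) and a late (P56) stage of disease.

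p21, the product of Cdkn1a, binds cyclin-dependent kinases and PCNA and holds the cell cycle before DNA synthesis. Its transcription is the textbook response to p53, although other factors also switch it on, and lasting p21 is a mark of senescent cells. The 3 GADD45 proteins are small acidic stress sensors that bind CDK1, PCNA, p21 and the kinase MAP3K4, through which they start p38 and JNK signaling. Gadd45a is a p53 target, Gadd45b is known for induction by NF-κB and TGF-β and by neuronal activity, and Gadd45g for induction by cytokines. Sestrin 1, also a p53 target, inhibits the growth kinase mTORC1 through GATOR2 and limits peroxide stress.

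The stretch of 250 bases just before the RefSeq start site is shown for each gene, because 4 of the 5 were higher and 1 was lower in R237H rats at P56 although Cdkn1a, Gadd45a and Sesn1 are all known p53 targets. All 5 members were matched by symbol to the RefSeq table (GRCr8). The build used for the deposited counts is not given in the sources used here. Capitals mark every match, on either strand, to the octamer ATTTGCAT, the CCAAT box CCAAT, the TATA box TATAAA, the E-box CACGTG, the GC box GGGCGG and the p53 half-site. No matches overlapped. The windows are written 5′ to 3′ on the gene's own strand.
Cdkn1a, chr20:7150682-7150931, plus strand: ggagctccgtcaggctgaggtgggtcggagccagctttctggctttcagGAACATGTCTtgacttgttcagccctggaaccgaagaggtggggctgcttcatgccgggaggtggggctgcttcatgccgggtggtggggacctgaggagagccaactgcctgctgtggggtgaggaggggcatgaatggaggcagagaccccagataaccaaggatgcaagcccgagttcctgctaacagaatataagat
Gadd45a, chr4:97486800-97487049, minus strand: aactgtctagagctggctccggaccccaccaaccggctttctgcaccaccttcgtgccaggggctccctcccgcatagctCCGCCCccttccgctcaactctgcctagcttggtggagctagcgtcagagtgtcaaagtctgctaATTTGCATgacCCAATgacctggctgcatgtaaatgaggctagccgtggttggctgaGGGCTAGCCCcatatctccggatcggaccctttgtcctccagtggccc
Gadd45b, chr7:9430719-9430968, minus strand: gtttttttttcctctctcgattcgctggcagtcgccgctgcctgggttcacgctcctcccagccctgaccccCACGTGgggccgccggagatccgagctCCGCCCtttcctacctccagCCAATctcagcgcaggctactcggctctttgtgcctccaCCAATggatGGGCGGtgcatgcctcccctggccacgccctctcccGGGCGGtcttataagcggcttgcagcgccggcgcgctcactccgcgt
Gadd45g, chr17:13530352-13530601, minus strand: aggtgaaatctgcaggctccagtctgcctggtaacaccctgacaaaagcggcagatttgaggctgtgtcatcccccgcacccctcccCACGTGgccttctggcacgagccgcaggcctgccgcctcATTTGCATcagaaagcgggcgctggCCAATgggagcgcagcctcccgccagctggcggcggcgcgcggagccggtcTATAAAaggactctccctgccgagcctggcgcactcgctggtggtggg
Sesn1, chr20:46948469-46948718, plus strand: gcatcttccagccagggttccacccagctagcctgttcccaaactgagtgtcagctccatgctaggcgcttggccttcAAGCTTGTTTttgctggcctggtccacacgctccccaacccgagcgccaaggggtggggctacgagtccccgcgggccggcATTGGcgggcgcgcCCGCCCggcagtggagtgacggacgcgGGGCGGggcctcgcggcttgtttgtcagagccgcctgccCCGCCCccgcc

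A p53 half-site began 201 bases before the start of Cdkn1a, 48 bases before that of Gadd45a and 172 bases before that of Sesn1, and the Gadd45b and Gadd45g windows held no match. Of 33469 rat windows of the same length, 6.64% held one. Sesn1, which fell at P56, had a match in its window as did Cdkn1a and Gadd45a, which rose. The half-site was read as RRRCWWGYYY (R is A or G, W is A or T, Y is C or T) with every letter matched. Only single half-sites were searched and the bases beside a match were not scored, so the matches are not shown to be equivalent. The octamer was in Gadd45a (105 bases before the start) and Gadd45g (124 bases), against 1.56% of all windows. The E-box was in Gadd45b (178 bases) and Gadd45g (163 bases), against 5.59%. CCAAT boxes were in the windows of all 3 GADD45 genes and of Sesn1 (34.0% of all windows), GC boxes in Gadd45a, Gadd45b and Sesn1 (30.5%), and a TATA box in Gadd45g alone among the 5 (12.9%). The 5 windows held 58.8% to 69.6% G and C, against a median of 51.2% over all windows, so the shares are not from windows of like composition. Sequence outside the 250 bases was not searched. These are matches of letters. Binding was not measured.

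Library depth was 21580397 to 55544871 expected counts per rat (median 46157271), and 2 libraries, both of R237H males (s70-B and R1781H), were the shallowest, as every other held at least 38503686. Expected counts of the members ran from 31, for Gadd45g in a WT rat, to 11261, for Gadd45a in an R237H rat. Levels of 1 gene are compared between rats as normalized CPM, which are counts divided by the TMM-scaled size of the library, and levels of different genes as TPM, which are also scaled by length. In each comparison, log2 fold changes (R237H minus WT, with SE) and FDR values come from edgeR's quasi-likelihood test over all genes, and a gene was called at an FDR under 0.01. Gfap itself, the gene that carries the mutation, was at 4264 to 6989 normalized CPM in R237H rats and 581 to 1082 in WT rats at P56, and at 3120 to 4764 and 493 to 727 at P21. Thus every R237H library had more Gfap RNA than every WT library of its age.

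In this bulk tissue, fewer cells of a type and less RNA per cell cannot be told apart. At P56, 4 of the 5 genes were higher and Sesn1 was lower in R237H rats of both sexes, with no overlap between the genotypes for any of them. In males 3 members passed the test as increased, where 16.8% of the 15097 genes tested did, and 1 as decreased, against 11.1%. In females 4 were increased, against 17% of 15033 genes, and 1 decreased, against 11.1%. The 2 genotypes were without overlap in all 5 members, against 42% of all genes in males and 40.9% in females. At P21 the members called were all GADD45 genes. In males 3 members were increased (12.4% of all genes) and 0 decreased (4.82%), and 3 did not overlap (30%). In females 2 were increased (7.06% of all genes) and 0 decreased (0.753%), and 4 did not overlap (21.5%). The 5 members were identified among the genes named by the study, a selection that favours change. Of those genes, 57.5% were increased and 21.3% decreased in P56 males, and 59.9% and 21.9% in P56 females. At P21 the shares were 53.5% and 14.4% in males and 32.8% and 3.49% in females.

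**Figure D1:**
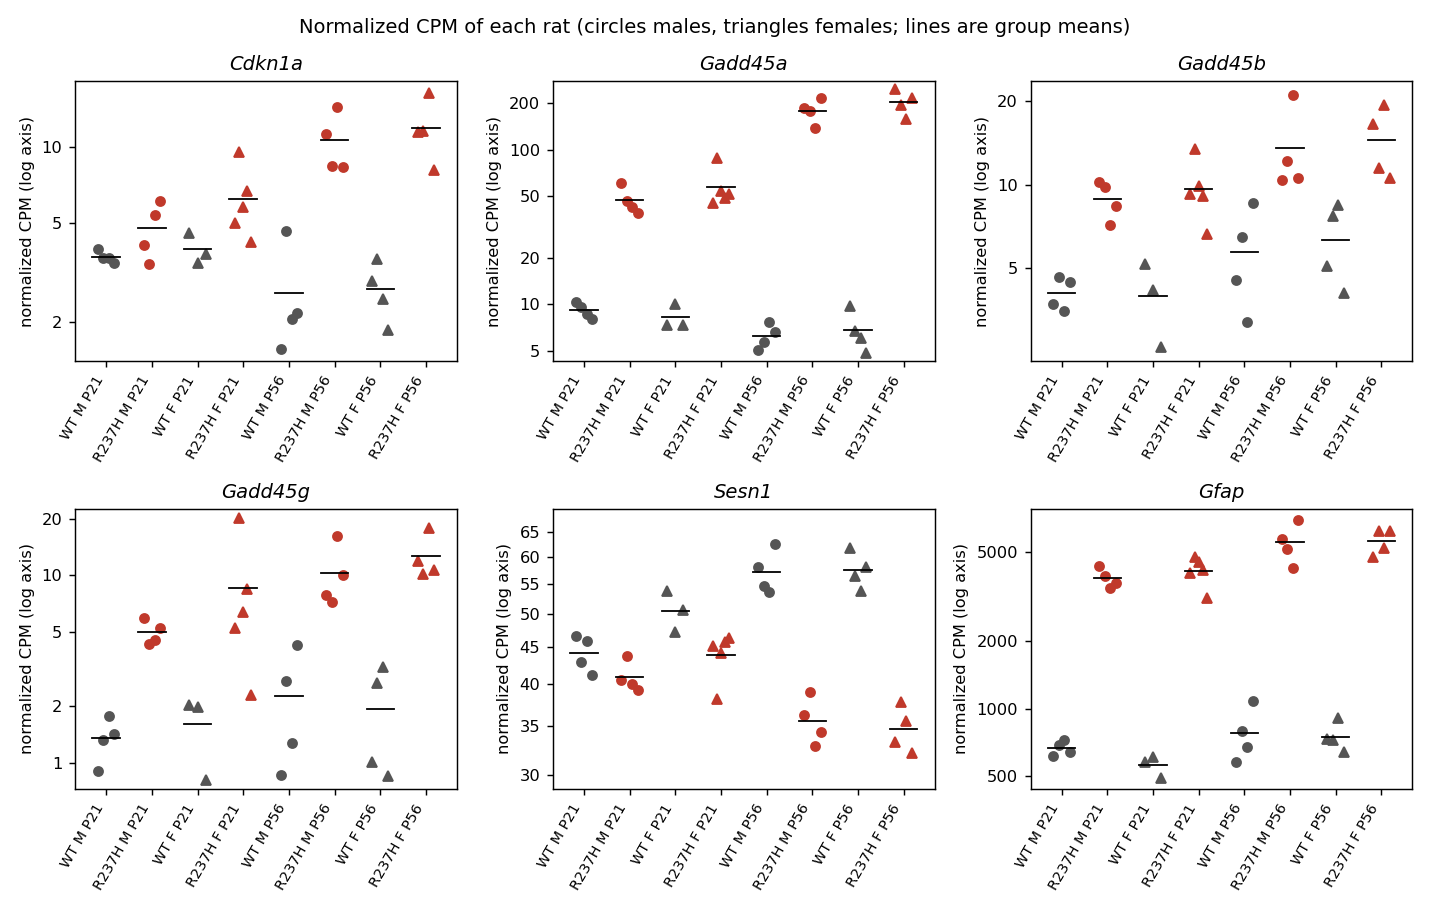
Normalized CPM (log axis) of the 5 genes and Gfap in each of the 32 rats, WT in grey and R237H in red, males as circles (M) and females as triangles (F), with a line at each group mean. At P56 the R237H and WT rats separate for every gene, with Sesn1 as the 1 gene that is lower in R237H rats.

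**Figure D2:**
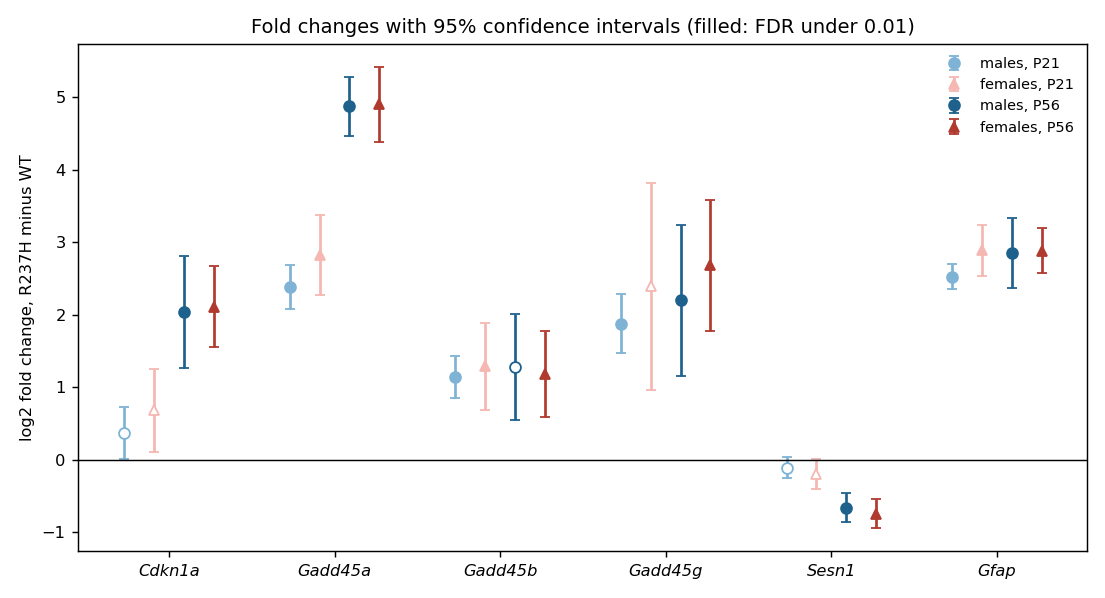
Log2 fold change of R237H over WT rats with its 95% confidence interval for each gene, sex and age. Filled symbols passed an FDR under 0.01. Gadd45a stands at 4.88 and 4.90 at P56 and at 2.38 and 2.82 at P21, whereas the intervals of Gadd45b overlap at the 2 ages.

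Gadd45a showed the largest difference of the 5. In P56 R237H males it was 186 in s65-A, 179 in s66-A, 139 in s69-B and 216 in s70-B normalized CPM, and in WT males 5.03 in s65-B, 5.64 in s66-B, 7.67 in s69-A and 6.61 in s70-A. In P56 R237H females it was 249.7 in s64-A, 196 in s65-C, 159.5 in s69-C and 216 in s70-C, and in WT females 9.73 in s64-B, 6.67 in s66-D, 6.01 in s69-D and 4.79 in s71-D. The lowest R237H rat at this age was s69-B and the highest WT rat s64-B, and they were far apart. Fold changes were 29.4-fold in males (log2 4.88, SE 0.18, FDR 3.68e-07) and 29.9-fold in females (log2 4.90, SE 0.23, FDR 3.04e-07). At P21 R237H males were at 61.2 in R1781A, 46.7 in R1781E, 42.9 in R1781H and 39.2 in R1781I, and WT males at 10.3 in R1781C, 9.61 in R1781D, 8.56 in R1781F and 8.05 in R1781G. R237H females were at 45.5 in R1789A, 89.2 in R1789B, 54.0 in R1790B, 48.6 in R1790C and 51.9 in R1797D, and WT females at 7.30 in R1790A, 10.05 in R1796A and 7.33 in R1797C. The genotypes were already apart at P21, and R1789B stood above the other R237H females. Here the change was 5.22-fold in males (log2 2.38, SE 0.14, FDR 1.20e-07) and 7.08-fold in females (log2 2.82, SE 0.25, FDR 4.67e-05). No alternative and no rat left out changed any of these 4 calls.

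The increase in Gadd45a was larger at P56 than at P21 in both sexes. In a model of the 16 rats of a sex, the difference between the ages in the log2 fold change was 2.47 in males (SE 0.23, FDR 4.43e-06) and 2.09 in females (SE 0.32, FDR 0.00145). Among all genes, 10.1% passed this test of age by genotype in males and 2.15% in females. All R237H rats at P56 were above all R237H rats at P21, whereas WT rats of the 2 ages overlapped (4.79 to 9.73 at P56 and 7.30 to 10.3 at P21). Here and in the age differences below, age and collection cannot be told apart, although each age has its own WT rats.

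Gadd45g was higher in R237H rats in all 4 comparisons, with the largest SE of the 5 members in each, and passed the test in 3 of them. P56 R237H males were at 7.89 in s65-A, 7.24 in s66-A, 16.1 in s69-B and 10.01 in s70-B normalized CPM, and WT males at 0.86 in s65-B, 2.74 in s66-B, 1.28 in s69-A and 4.25 in s70-A. P56 R237H females were at 11.9 in s64-A, 10.1 in s65-C, 17.8 in s69-C and 10.7 in s70-C, and WT females at 1.01 in s64-B, 2.66 in s66-D, 3.25 in s69-D and 0.855 in s71-D. WT rats at P56 were themselves spread widely, but none reached the lowest R237H rat. The fold change was 4.61 in males (log2 2.204, SE 0.47, FDR 0.00386) and 6.43 in females (log2 2.68, SE 0.41, FDR 4.62e-04). In males the call was lost without R237H s69-B (FDR 0.0118), R237H s70-B (0.0104) or WT s69-A (0.0103).

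At P21 Gadd45g in R237H males was 5.88 in R1781A, 4.30 in R1781E, 4.50 in R1781H and 5.22 in R1781I, and in WT males 0.907 in R1781C, 1.32 in R1781D, 1.78 in R1781F and 1.43 in R1781G. These groups were narrow and far apart, at 3.67-fold (log2 1.88, SE 0.19, FDR 1.20e-05), although the FDR was 0.0114 with all 32 rats in 1 model. R237H females were at 5.25 in R1789A, 20.2 in R1789B, 6.35 in R1790B, 8.43 in R1790C and 2.30 in R1797D, and WT females were at 2.03 in R1790A, 1.99 in R1796A and 0.815 in R1797C. The lowest R237H female, R1797D, was just above the highest WT female, and R1789B was higher than any other of the 32 rats. The log2 fold change of 2.40 (SE 0.64) in females did not pass the test (FDR 0.0327), and passed it without R1797D (log2 2.64, FDR 0.00903). Without R1789B it was 1.79 (FDR 0.0341), and a model of both sexes with sex as a term gave 2.12 (FDR 1.01e-04).

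Gadd45b had the smallest fold change of the 3 GADD45 genes in each comparison, with similar point estimates at the 2 ages. P56 R237H males were at 10.4 in s65-A, 12.1 in s66-A, 21.2 in s69-B and 10.5 in s70-B normalized CPM, and WT males at 4.51 in s65-B, 6.44 in s66-B, 3.18 in s69-A and 8.60 in s70-A. P56 R237H females were at 16.5 in s64-A, 11.4 in s65-C, 19.4 in s69-C and 10.6 in s70-C, and WT females at 5.07 in s64-B, 7.70 in s66-D, 8.45 in s69-D and 4.05 in s71-D. The R237H male s69-B was far above the other 3. In males the log2 fold change of 1.28 (SE 0.33) had an FDR of 0.0101, just outside the threshold. It was inside it with DESeq2 (FDR 5.22e-04), with the likelihood-ratio test (7.88e-04) and without WT s70-A (0.00432), and stood at 0.98 (FDR 0.0280) without s69-B. In females the change was 2.28-fold (log2 1.19, SE 0.27, FDR 0.00531), and the call was lost without R237H s64-A or s69-C or WT s64-B or s71-D (FDR 0.0126 to 0.0172).

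At P21 Gadd45b in R237H males was 10.2 in R1781A, 9.83 in R1781E, 7.15 in R1781H and 8.38 in R1781I, and in WT males 3.69 in R1781C, 4.64 in R1781D, 3.48 in R1781F and 4.43 in R1781G. R237H females were at 9.27 in R1789A, 13.4 in R1789B, 9.91 in R1790B, 9.08 in R1790C and 6.62 in R1797D, and WT females at 5.17 in R1790A, 4.16 in R1796A and 2.58 in R1797C. Every R237H rat was above every WT rat of its age. The change was 2.21-fold in males (log2 1.14, SE 0.14, FDR 5.30e-05) and 2.44-fold in females (log2 1.29, SE 0.27, FDR 0.00904). When 1 rat was left out, the call in females held without R1797D, whereas without any of the other 7 the FDR was 0.0129 to 0.0372. The age difference of the fold change did not pass the test for Gadd45b in males (log2 0.12, 95% interval -0.68 to 0.92, FDR 0.849) or females (-0.10, interval -0.94 to 0.74, FDR 0.917). For Gadd45g it was 0.30 in males (interval -0.83 to 1.44, FDR 0.728) and 0.30 in females (interval -1.35 to 1.94, FDR 0.867). An age difference as large as the one estimated for Gadd45a in the same sex lay outside all 4 of these intervals, barely so for Gadd45g in females.

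Cdkn1a, the p21 gene, rose at P56 in both sexes and did not pass the test at P21 in either. At P56 R237H males were at 11.3 in s65-A, 8.44 in s66-A, 14.5 in s69-B and 8.29 in s70-B normalized CPM, and WT males at 1.57 in s65-B, 4.64 in s66-B, 2.06 in s69-A and 2.19 in s70-A. R237H females were at 11.5 in s64-A, 11.5 in s65-C, 16.4 in s69-C and 8.09 in s70-C, and WT females at 2.93 in s64-B, 3.59 in s66-D, 2.49 in s69-D and 1.87 in s71-D. Every R237H rat was above every WT rat. The change was 4.11-fold in males (log2 2.04, SE 0.34, FDR 0.00107) and 4.33-fold in females (log2 2.11, SE 0.25, FDR 9.20e-05), and both calls held in every alternative run and without any 1 rat. The WT male s66-B had more Cdkn1a than the other 7 WT rats at P56, and it also had 7019 summed TPM over 10 matched choroid plexus markers, against 49.9 to 117 in those 7. It had the highest summed red blood cell markers at P56 as well (1793 TPM). The R237H rats s70-C and s70-B also had raised choroid plexus sums (1964 and 923 TPM), yet the lowest Cdkn1a of the R237H rats of their sexes at P56. A relation of these markers to Cdkn1a was not tested. Without s66-B the log2 fold change in males was 2.49 (SE 0.25, FDR 7.95e-05).

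At P21 Cdkn1a in R237H males was 4.07 in R1781A, 3.42 in R1781E, 5.38 in R1781H and 6.09 in R1781I, and in WT males 3.93 in R1781C, 3.60 in R1781D, 3.60 in R1781F and 3.44 in R1781G. R237H females were at 4.98 in R1789A, 9.56 in R1789B, 5.76 in R1790B, 6.67 in R1790C and 4.20 in R1797D, and WT females at 4.55 in R1790A, 3.47 in R1796A and 3.73 in R1797C. The genotypes overlapped in both sexes. The log2 fold change was 0.37 in males (SE 0.17, FDR 0.119) and 0.68 in females (SE 0.26, FDR 0.126), and 0.52 (FDR 0.0168) with both sexes in 1 model. The difference between the ages was 1.64 in males (SE 0.40, FDR 0.00802) and 1.44 in females (SE 0.37, FDR 0.0260), so it passed the test in males. In males it was lost without any 1 of 13 of the 16 rats (FDR 0.0101 to 0.0193). It held without WT s66-B (2.09, FDR 2.57e-04), R237H s70-B or R237H R1781I. In females it passed with DESeq2 (FDR 0.00308) and without R1789B (FDR 0.00770). WT means were lower at P56 than at P21, at 2.61 against 3.65 in males and 2.72 against 3.92 in females. R237H means were higher, at 10.6 against 4.74 in males and 11.9 against 6.24 in females. Part of the age difference in these means thus lies in the WT rats.

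Sesn1 was the 1 member that fell. At P56 R237H males were at 36.3 in s65-A, 39.0 in s66-A, 32.8 in s69-B and 34.4 in s70-B normalized CPM, and WT males at 58.0 in s65-B, 54.7 in s66-B, 53.7 in s69-A and 62.5 in s70-A. R237H females were at 33.3 in s64-A, 37.8 in s65-C, 35.6 in s69-C and 32.1 in s70-C, and WT females at 61.8 in s64-B, 56.5 in s66-D, 53.8 in s69-D and 58.0 in s71-D. All 8 R237H rats were below 40 and all 8 WT rats above 50. R237H males were 1.58-fold lower (log2 -0.66, SE 0.09, FDR 2.66e-04) and R237H females 1.67-fold lower (log2 -0.74, SE 0.09, FDR 9.45e-05). In TPM, tested with limma on log2(TPM + 0.1), the difference was -0.28 in males (FDR 0.223) and -0.45 in females (FDR 0.0219), but on that scale the median of all genes stood at 0.40 in males and 0.26 in females. Relative to those medians Sesn1 was at -0.68 and -0.71, close to the values from counts. TMM scaling likewise put the median of all genes near 0 (-0.01 and -0.03), so this closeness cannot decide between the 2 scales. The TPM scale also moved the calls of all genes from 60.1% increased to 95.2% in males and from 60.3% to 92.6% in females. WT s69-A had the smallest TPM per normalized CPM of all rats (median over genes 0.402, others 0.515 to 0.735), and its 22.5 TPM of Sesn1 lay below the 23.8 to 27.9 TPM of the 4 R237H males. Without s69-A the log2 change from counts in males was -0.69.

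At P21 Sesn1 in R237H males was 40.6 in R1781A, 43.7 in R1781E, 40.1 in R1781H and 39.2 in R1781I, and in WT males 46.7 in R1781C, 42.9 in R1781D, 45.9 in R1781F and 41.2 in R1781G. R237H females were at 45.2 in R1789A, 38.2 in R1789B, 44.2 in R1790B, 45.7 in R1790C and 46.4 in R1797D, and WT females at 53.9 in R1790A, 47.2 in R1796A and 50.7 in R1797C. Males overlapped, and females did not. Neither difference passed the test (males log2 -0.11, SE 0.06, FDR 0.251; females -0.19, SE 0.09, FDR 0.224). The change between the ages was -0.57 in males (SE 0.10, FDR 0.00128) and -0.54 in females (SE 0.12, FDR 0.0124), where it passed with DESeq2 (FDR 6.90e-04) and without R1789B (FDR 0.00506). WT means were higher at P56 than at P21, at 57.2 against 44.2 in males and 57.5 against 50.6 in females. R237H means were lower, at 35.6 against 40.9 in males and 34.7 against 43.9 in females. The age difference thus lies in both genotypes, and in males the WT means moved more than the R237H means. The spread between rats was small for Sesn1, with coefficients of variation of 4.77% to 7.48% in the 8 groups, against 5.61% to 52.7% for Cdkn1a and 14.5% to 81.2% for Gadd45g.

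No member passed the test of a difference between the sexes in its response. At P56 the fold change in females minus that in males was 0.06 for Gadd45a (95% interval -0.53 to 0.65), 0.11 for Cdkn1a (-0.83 to 1.05), -0.05 for Gadd45b (-1.03 to 0.92), 0.52 for Gadd45g (-0.88 to 1.93) and -0.05 for Sesn1 (-0.30 to 0.20) on the log2 scale. At P21 these differences were 0.44 (-0.15 to 1.03), 0.30 (-0.37 to 0.97), 0.15 (-0.49 to 0.78), 0.51 (-0.92 to 1.95) and -0.09 (-0.32 to 0.14) in the same order. All P21 males share a title number that no P21 female has. Sex and title number thus cannot be told apart at that age. At P56 the intervals of Cdkn1a, Gadd45b and Gadd45g reach beyond 1 log2 unit, whereas those of Gadd45a and Sesn1 do not. With edgeR 0% of all genes passed this test at P56 and 0% at P21, as with DESeq2 and the likelihood-ratio test. In edgeR's test 310 of 15419 genes at P56 and 458 of 15361 at P21 had an unadjusted p under 0.05. Both shares are below the 0.05 that would arise with no difference.

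In order of level between groups, Gadd45a ran from R237H females and males at P56 (means 205 and 180) through R237H females and males at P21 (57.9 and 47.5) to the 4 WT groups (9.14 to 6.24). Neighbouring groups overlapped in this order except at the 2 steps from R237H at P56 to R237H at P21 and from there to WT. For Cdkn1a and Gadd45b every neighbouring pair of groups overlapped, so no step in their order exceeded the spread of the rats. For Gadd45g the 1 gap lay between R237H males at P21 and WT males at P56. Sesn1 ran the other way, from WT at P56 (57.5 and 57.2) through P21 to R237H at P56 (35.6 and 34.7), with gaps between WT females and WT males at P21 and between R237H males at P21 and R237H males at P56. The first of these gaps also parts title numbers, so it cannot be read as sex alone. Per length, Sesn1 was the most abundant of the 5 transcripts in WT rats at P56 (median 33.8 TPM, against 8.03 for Gadd45a, 8.69 for Gadd45b, 3.08 for Gadd45g and 2.36 for Cdkn1a). In R237H rats at P56, Gadd45a had the highest median (348 TPM), ahead of Sesn1 (25.7), Gadd45g (22.3), Gadd45b (20.9) and Cdkn1a (13.6).

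The other sestrins were higher in R237H rats, where Sesn1 was lower. Sesn2, the stress-induced sestrin, was 8.98 TPM in WT and 27.9 TPM in R237H rats at P56 (medians of 8), and rose in males (log2 1.24, SE 0.11, FDR 2.40e-05) and females (1.31, SE 0.12, FDR 1.43e-05). It had also risen at P21 (males 0.97, FDR 6.83e-06; females 1.099, FDR 0.00282). Sesn3, known as a target of FOXO factors, was 33.1 TPM in WT and 85.7 TPM in R237H rats at P56 and rose in males (1.23, FDR 1.99e-04) and females (0.94, FDR 7.57e-05). At P21 it rose in males (0.59, FDR 2.42e-05) and was at 0.49 in females (FDR 0.0647). The TPM ranges at P56 overlapped between Sesn1 (22.5 to 36.4) and Sesn3 (19.3 to 35.5) in WT rats, and between Sesn1 (19.2 to 28.0) and Sesn2 (21.2 to 29.7) in R237H rats, so neither pair can be ranked.

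**Figure D3:**
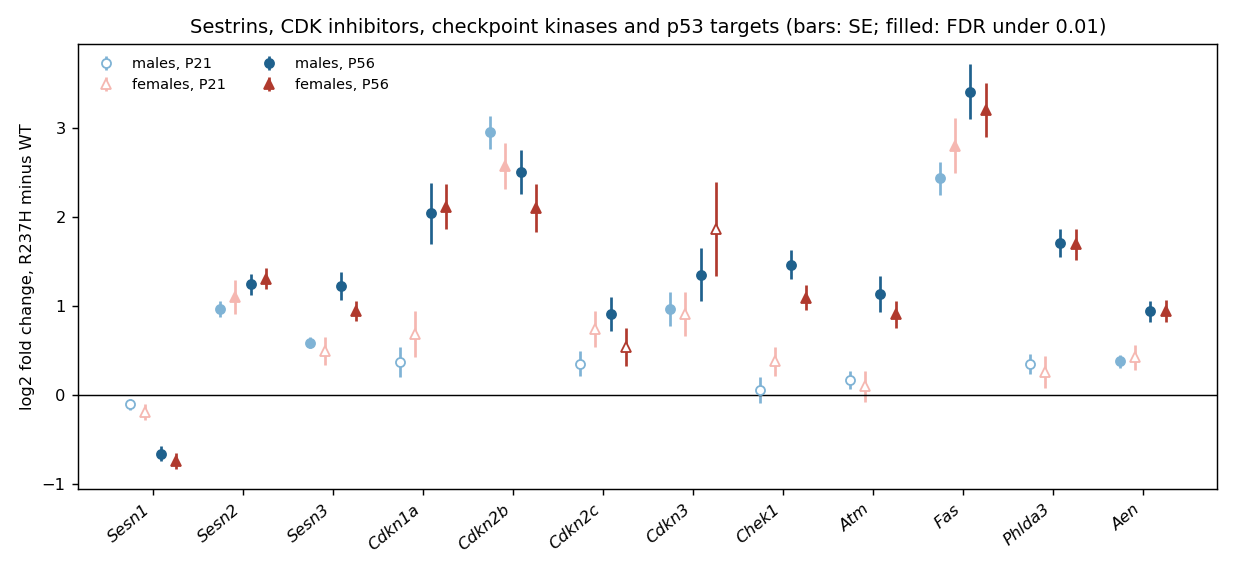
Log2 fold change (R237H over WT, bars are SE) of the sestrins, the matched cyclin-dependent kinase inhibitors, the checkpoint kinase genes Chek1 and Atm, and the p53 targets Fas, Phlda3 and Aen, by sex and age. Filled symbols passed an FDR under 0.01. Sesn1 lies below 0 while Sesn2 and Sesn3 lie above it in every comparison.

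Gene symbols were known for 3289 of the 23822 genes, namely those ranked by FDR in the study's tables. The named genes are therefore a selection that favours change, and 57.5% of the 3251 tested in males at P56 were increased and 21.3% decreased. Among P56 females 59.9% were increased and 21.9% decreased. P21 males had 53.5% increased and 14.4% decreased, whereas P21 females had 32.8% increased and 3.49% decreased. The median log2 fold change of these genes was 0.92 and 0.89 at P56 and 0.45 and 0.49 at P21, in males and females. List counts and medians below are to be read beside those of the same comparison, and list members without a match were not analysed here. Of 7 listed cyclin-dependent kinase inhibitors besides Cdkn1a, 3 were matched. Cdkn2b, which encodes p15 and blocks CDK4 and CDK6, rose in all 4 comparisons, by 2.50 in males and 2.10 in females at P56 and by 2.95 and 2.57 at P21 (FDR 2.18e-07 to 1.52e-04). Unlike Cdkn1a, it was thus called at P21. In medians it was 0.425 TPM in WT and 2.74 TPM in R237H rats at P56. Cdkn2c (p18) was called in P56 males (0.91, FDR 0.00341) and Cdkn3, a phosphatase that acts on CDK2 and is high in dividing cells, in males at P56 (1.35, FDR 0.00481) and P21 (0.97, FDR 0.00277).

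Most matched kinases, cyclins and other partners that p21 and the GADD45 proteins act on were also higher. Of 20 listed, 10 were matched, and 9 rose in males and 9 in females at P56, 7 in males and 8 in females at P21, and 0 fell in any of them. Ccnd1 (cyclin D1) rose by 2.70 in males and 2.69 in females at P56 (FDR 3.82e-06 and 7.90e-07), Cdk1, a direct partner of the GADD45 proteins, by 2.47 and 2.41 (3.47e-05 and 5.31e-05), Ccnd2 by 1.35 and 1.29 (6.10e-05 and 2.66e-06), and Pcna, the DNA polymerase clamp, by 0.84 and 0.66 (5.17e-05 and 0.00157). The summed level of 7 markers of dividing cells was 18.1 to 27.7 TPM in R237H and 5.12 to 7.45 TPM in WT rats at P56, and 20.6 to 30.4 against 9.64 to 13.4 at P21. Transcripts of a growth-arrest gene and of dividing-cell genes were thus both higher in the same libraries at P56. 

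Among kinases of the DNA damage checkpoint, Chek1 rose at P56 by 1.47 in males and 1.09 in females (FDR 8.43e-05 and 1.60e-04), and Atm, the kinase that answers DNA breaks, by 1.14 and 0.91 (FDR 0.00137 and 8.07e-04). At P21 Chek1 was at 0.06 in males (FDR 0.800) and 0.38 in females (FDR 0.171), and Atm at 0.17 (FDR 0.244) and 0.10 (FDR 0.799). Of 42 p53 targets outside the 5 members, 14 were matched. At P56 10 rose and 2 fell in males (median log2 1.27, against 0.92 over genes with a symbol and -0.01 over all genes), and 11 rose and 2 fell in females (median 1.29, against 0.89 and -0.03). Fas, the death receptor, rose by 3.41 and 3.20 (FDR 2.10e-05 and 1.76e-05), Phlda3, an AKT inhibitor, by 1.71 and 1.69 (2.23e-05 and 3.12e-05), and the exonuclease gene Aen by 0.94 and 0.94 (1.87e-04 and 1.79e-04). Of the 2 that fell, Tigar, which lowers glycolytic flux and is named after its values were seen, was at -0.72 and -0.64 (FDR 5.65e-04 and 0.00102). At P21 6 rose and 2 fell in males (Tigar at -0.42, FDR 2.29e-04, and the cyclin gene Ccng1 at -0.34, FDR 0.00552, also named after their values were seen), and 2 rose and 0 fell in females. The medians were 0.36 and 0.45, below the 0.45 and 0.49 of genes with a symbol, and the share that rose was also below that of genes with a symbol in both sexes. Fas was called at P21 in both sexes (2.43 and 2.80), Aen in males (0.38, FDR 0.00310), and Phlda3 in neither (0.35, FDR 0.0357, and 0.26, FDR 0.436).

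The list of sestrins with their mTORC1 and antioxidant pathway had 7 of 29 members matched, of which 6 rose in males and 6 in females at P56, 7 in males and 4 in females at P21, and 0 fell. Nfe2l2 (NRF2), the main regulator of antioxidant genes, rose by 1.70 and 1.55 at P56 (FDR 4.85e-06 and 2.15e-06). Ddit4l, a relative of the mTORC1 inhibitor REDD1, rose by 2.13 and 2.35 (5.88e-05 and 1.56e-05), and Sqstm1 (p62), which binds the NRF2 repressor KEAP1, by 1.09 and 1.08 (6.10e-05 and 4.33e-05). 

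Of 19 other transcription factors known to regulate Cdkn1a or GADD45 genes, 10 were matched, and 7 rose and 1 fell at P56 in each sex, 8 rose in males and 7 in females at P21, and 0 fell at P21. At P56 Atf3, a stress-response factor, rose by 5.28 in males and 4.402 in females (FDR 8.45e-06 and 5.61e-07), Stat3 by 2.25 and 2.14 (1.17e-06 and 7.14e-07), Myc, which represses Cdkn1a, by 2.09 and 2.28 (2.70e-06 and 3.78e-06), and Nfkb1 by 1.44 and 1.30 (8.51e-06 and 8.01e-06). The 1 that fell at P56, named after its value was seen, was E2f1 (-0.87 and -1.11). Of 22 immediate early genes, 5 were matched, and 2 rose in males and 3 in females at P56, 3 in males and 4 in females at P21. Fosl1 rose by 6.003 and 5.86 at P56 (FDR 2.59e-06 and 1.32e-07) and Dusp6, a phosphatase of ERK, by 0.86 and 0.55 (2.94e-04 and 0.00113). Fos was at 1.92 (FDR 0.0103) and rose by 1.18 (FDR 0.00305), and Egr2 was at 0.89 (FDR 0.111) and 0.11 (FDR 0.856). Of 18 genes of senescence and its secretory phenotype, 12 were matched, and 10 rose in each sex at P56, 11 of 11 tested in males and 10 of 12 in females at P21, and 0 fell. The list was not sorted by the direction its genes take in senescence, so these counts give no direction for senescence. The chemokine genes Ccl2 and Cxcl1 rose by 7.20 and 5.49 in P56 males (FDR 1.99e-06 and 2.59e-06) and by 5.50 and 5.11 in P56 females (FDR 1.30e-06 and 1.10e-05). Timp1, a protease inhibitor, rose by 4.26 and 3.80 (FDR 9.87e-06 and 1.62e-06), and the cytokine gene Il6 by 5.66 and 4.44 (FDR 1.29e-05 and 1.79e-05).

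Markers of several cell types differed between the genotypes in the same libraries. Their sums are in TPM and carry the shift of that scale at P56. There the median log2 fold change of all genes was 0.40 in males and 0.26 in females. All 13 listed microglia markers were matched, and 11 rose at P56 in each sex. Their summed level was 2609 to 4445 TPM in R237H and 395 to 684 TPM in WT rats at P56, and 1203 to 1939 against 499 to 584 at P21. The 7 matched of 10 astrocyte markers summed to 5269 to 7285 against 2651 to 3433 TPM at P56. Gfap was the 1 of them that rose in each sex, and Gja1 and Aldoc fell (named after their values were seen). From counts, the median log2 fold change of the 7 at P56 was -0.57 in males and -0.40 in females. The 3 matched of 10 neuron markers were present in every rat of this labelled hippocampus and summed to 272 to 419 against 385 to 548 TPM at P56 (2 fell in males and 1 in females) and to 367 to 466 against 488 to 590 at P21 (0 called). Sesn1 was lower in the same R237H rats at P56, whereas at P21 it overlapped between the genotypes in males and was not called in either sex. The 4 matched of 6 red blood cell markers were lower in R237H rats at P56 (74.0 to 145 against 349 to 1793 TPM), whereas at P21 they were 477 to 1912 against 970 to 1844. The 4 matched of 10 oligodendrocyte markers summed to 2490 to 3711 against 1055 to 2339 TPM at P56 and to 1880 to 3252 against 2819 to 4176 at P21. At P56 the 1 matched of 6 precursor markers was at 47.7 to 64.3 against 35.3 to 52.5, and the 2 matched of 8 endothelial and mural markers summed to 36.1 to 49.8 against 31.4 to 90.2. From counts, the precursor marker was at log2 -0.18 in males and -0.09 in females at P56, not called in either. At P21 it was called as decreased in both sexes (-0.45 and -0.55). Lymphocyte markers had 0 of 12 matched and were not analysed here. Choroid plexus markers (10 of 11) passed 1000 TPM in the P56 rats s66-B and s70-C and the P21 WT rats R1781C and R1797C, and 900 TPM in s70-B, and were otherwise under 200 TPM. No matched marker of any of these lists was at 0 in all rats of a group. The part of these cell types in the members' differences was not tested.

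Over rats of 1 genotype and age, the members did not all move together. Levels were centred on the mean of each sex, and 15 pairs of the 5 genes and Gfap were correlated in 4 sets of 7 to 9 rats, with an exact two-sided permutation test within sex. Of the 60 pairs, 0 passed after Benjamini-Hochberg adjustment, and 14 had an unadjusted p under 0.05 (3 in R237H and 3 in WT rats at P56, 6 in R237H and 2 in WT rats at P21). With 576 arrangements at P56, 2880 and 144 at P21, the smallest possible p was 0.00174, 3.47e-04 and 0.00694.

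**Figure D4:**
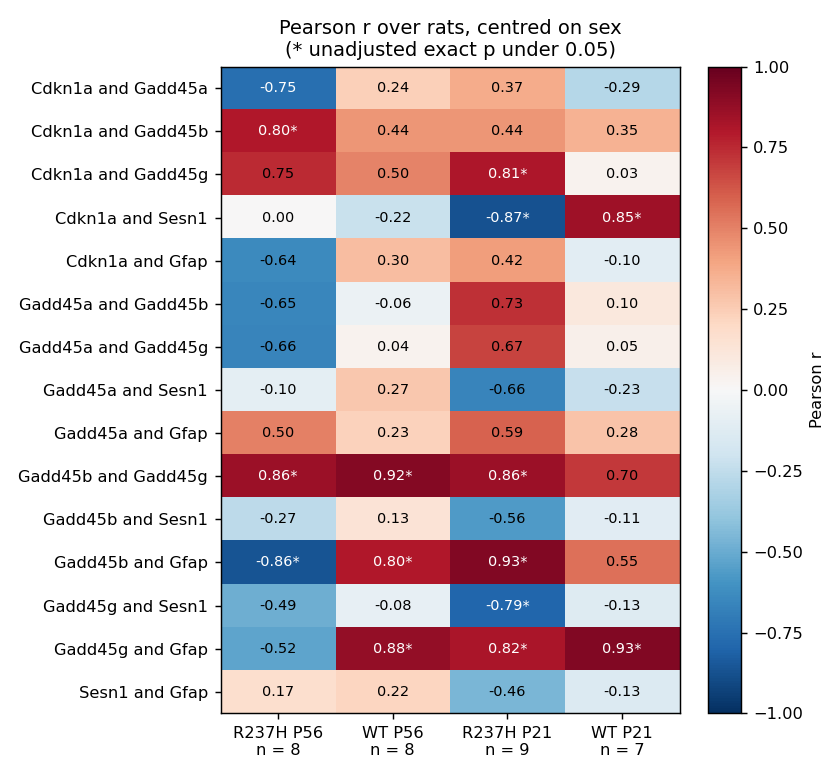
Pearson r of each pair of genes over rats of 1 genotype and age, after centring on sex, with an asterisk where the unadjusted exact permutation p was under 0.05. Gadd45b and Gadd45g have a positive r in all 4 sets (0.70 to 0.92), and Gadd45b and Gfap change sign between WT and R237H rats at P56.

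Gadd45b and Gadd45g had the steadiest relation. Their r was 0.86 in R237H rats at P56 (exact permutation p = 0.0226, adjusted 0.163; rho 0.57, p = 0.182, adjusted 0.552), but 0.18 without the 2 rats farthest from the median, s69-B and s69-C. In WT rats at P56 it was 0.92 (exact permutation p = 0.0191, adjusted 0.163; rho 0.79, p = 0.0382, adjusted 0.327), and 0.97 without 2 rats. In R237H rats at P21 it was 0.86 (exact permutation p = 0.0344, adjusted 0.172; rho 0.53, p = 0.180, adjusted 0.552), and 0.16 without R1789B and R1797D. In WT rats at P21 it was 0.70 (exact permutation p = 0.257, adjusted 0.577; rho 0.50, p = 0.417, adjusted 0.838), and 0.72 without 2 rats. The relation in R237H rats thus rests on 2 rats at each age, and that in WT rats at P56 does not.

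Gadd45b and Gfap had r of opposite sign in R237H and WT rats at P56, neither of which passed after adjustment. In R237H rats r was -0.86 (exact permutation p = 0.0295, adjusted 0.163; rho -0.86, p = 0.0278, adjusted 0.327), and -0.84 without the 2 farthest rats. On log2(TPM + 0.1) it was -0.61 (exact permutation p = 0.130, adjusted 0.411). In WT rats r was 0.80 (exact permutation p = 0.0417, adjusted 0.179; rho 0.74, p = 0.0799, adjusted 0.436), and 0.81 without 2. In R237H rats at P21 it was 0.93 (exact permutation p = 0.00278, adjusted 0.139; rho 0.92, p = 0.00347, adjusted 0.135), and 0.88 without 2. In WT rats at P21 it was 0.55 (exact permutation p = 0.396, adjusted 0.679; rho 0.32, p = 0.681, adjusted 0.9752), and 0.32 without 2. The difference between the sets was not tested. Within sex, r was -0.87 in the 4 males and -0.86 in the 4 females among R237H rats at P56.

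**Figure D5:**
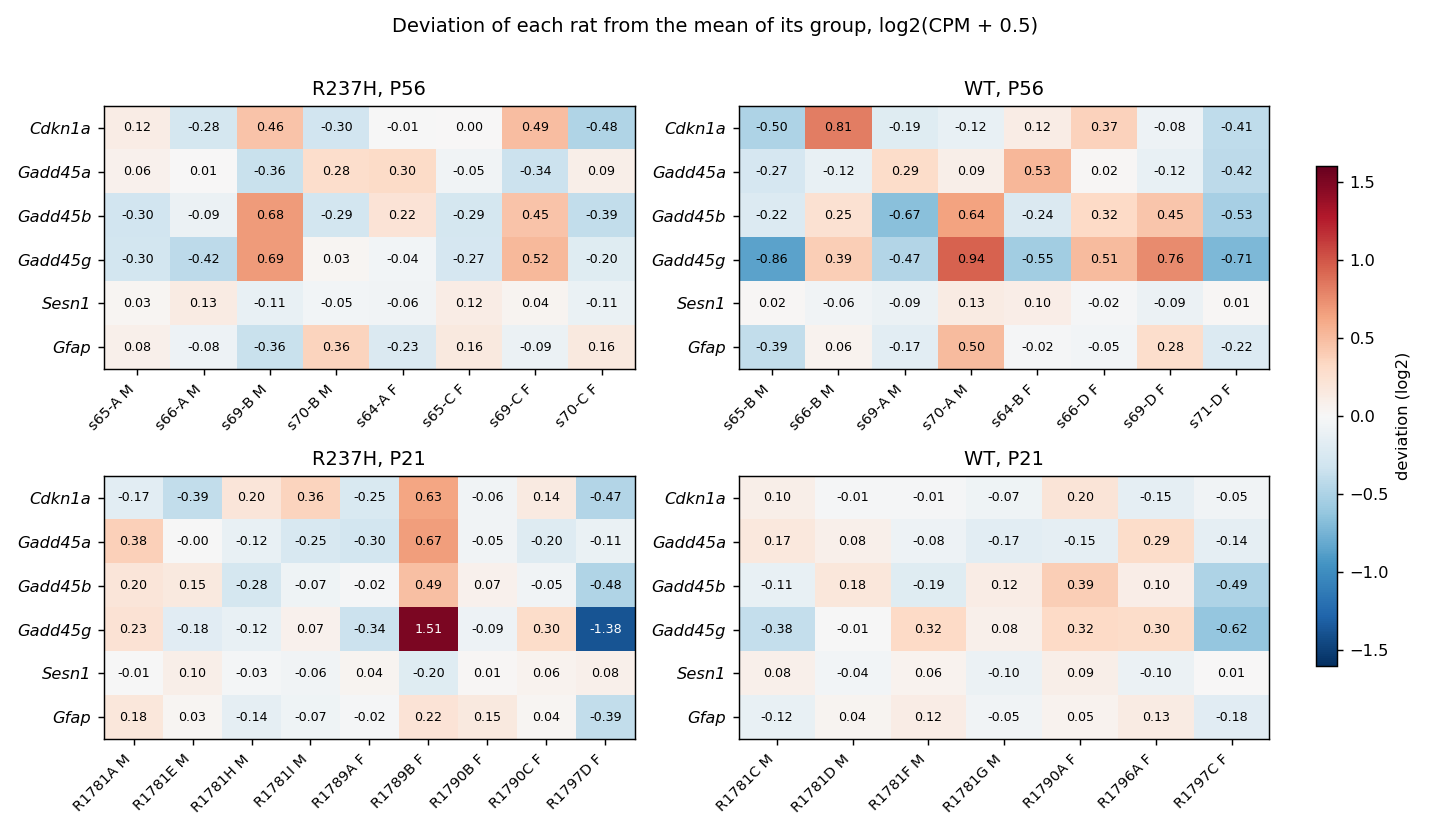
Deviation of each rat from the mean of its group, on the scale of log2(normalized CPM + 0.5), for the 5 genes and Gfap, with the rat and its sex (M or F) below each column. R237H s69-B and s69-C are above their group means for Cdkn1a, Gadd45b and Gadd45g and below them for Gadd45a, and R1789B is above for those 4 genes and below for Sesn1.

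The same few rats stood out in several members. Among R237H rats at P56, s69-B and s69-C had the highest Cdkn1a, Gadd45b and Gadd45g of their sexes and the lowest Gadd45a. Their deviations from the group mean were 0.46 and 0.49 for Cdkn1a, 0.68 and 0.45 for Gadd45b, 0.69 and 0.52 for Gadd45g, and -0.36 and -0.34 for Gadd45a. Among R237H rats of their sexes at P56, these 2 rats also had the highest summed microglia markers (4445 and 4118 TPM). They had the highest summed neuron markers of those rats as well (371 and 419 TPM), and neither relation was tested. Cdkn1a and Gadd45a accordingly had r -0.75 in this set (exact permutation p = 0.0504, adjusted 0.201; rho -0.71, p = 0.0903, adjusted 0.436). At P21, R1789B was the highest R237H female in Cdkn1a, Gadd45a, Gadd45b and Gadd45g, with 0.63, 0.67, 0.49 and 1.51, and the lowest in Sesn1, with -0.20. It had the lowest TPM per normalized CPM among the P21 rats (0.515). Cdkn1a and Sesn1 had r -0.87 among R237H rats at P21 (exact permutation p = 0.00556, adjusted 0.139; rho -0.87, p = 0.00451, adjusted 0.135), -0.66 without R1789B and R1781I, and 0.85 among WT rats at P21 (exact permutation p = 0.0417, adjusted 0.179; rho 0.86, p = 0.0486, adjusted 0.365). On log2(TPM + 0.1) the first was -0.38 (exact permutation p = 0.379, adjusted 0.669), so it depended on the scaling.

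The genes whose levels were most like each member over the 32 rats, among 2991 with a symbol and a mean of at least 50 counts, are given as a description. All rats share the groups' differences, so these r values mostly follow genotype and age. For Gadd45a they were Tpm4, Ctnna1 and Lgmn (r 0.99 each), for Cdkn1a Tspo (0.92), Fgd3 (0.91) and Zfp217 (0.91), for Gadd45b Zfp710, C1qc and Gpsm3 (0.94 each), for Gadd45g Cyba (0.98), C1qc (0.97) and Ftl1 (0.97), and for Sesn1 Nol4 and Tiam2 (0.94 each). C1qc, a complement gene of microglia, was thus near the top for both Gadd45b and Gadd45g. After the means of the 8 groups were taken out, the nearest were Gdf15 (0.69), Tspo (0.69) and Rbpms2 (0.69) for Cdkn1a, Map4k4 (0.82), Brms1 (0.81) and Litaf (0.78) for Gadd45a, C1qc (0.86), Junb (0.86) and Orai1 (0.84) for Gadd45b, Gas2l1 (0.95), Pdlim7 (0.95) and Junb (0.94) for Gadd45g, and Sybu (0.70), LOC108353456 (0.67) and Nkiras1 (0.66) for Sesn1. Gdf15, like Cdkn1a, is a known p53 target, and Junb, an immediate early gene, was shared by Gadd45b and Gadd45g. The Gadd45g values include R1789B and R1797D, whose deviations in Gadd45g (1.51 and -1.38) were the largest of the 32 rats. Likeness without these rats was not computed. Junb itself was called only in P21 males (log2 0.86, FDR 4.70e-04) and was at 0.58 and 0.25 at P56 (FDR 0.339 and 0.604) and 1.21 in P21 females (FDR 0.140).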

How the data were processed

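RNA was extracted with Trizol from the hippocampus of 32 rats, and poly(A)-enriched stranded libraries were sequenced. Per the labels and the study's methods, the authors called bases with bcl2fastq 2.20.0.422, trimmed with Skewer, aligned with STAR and estimated expression with RSEM. Versions of the last 3, the genome build and the annotation are not given in the sources used here. The authors deposited 2 tables, expected counts (5.68% of values not whole) and TPM values. Gene symbols were taken from the study's tables, which pair 3289 of 23822 identifiers (13.8%) with a name. The authors' own fold changes and p-values there were not used.

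Expected counts were rounded. Genes passing filterByExpr were scaled by TMM and tested with edgeR 4.0.16 (quasi-likelihood F-test, Benjamini-Hochberg adjustment, R 4.3.3), comparing R237H with WT rats separately by sex and age, with interaction models of age (16 rats of a sex) and sex (16 rats of an age). A gene was called at an FDR under 0.01. The scripts were tested on simulated data. The study states that littermates were used, and the labels do not say which rats share a litter. Title numbers are shared by all P21 males, and by s69-B and s69-C, among others. The tests treat such rats as independent, so p-values measure the spread between these rats and not between litters. Correlations used log2(normalized CPM + 0.5), centred on sex, with a threshold of 0.05 (SciPy 1.17.1). The fits were repeated with DESeq2 1.42.0, the likelihood-ratio test, RLE scaling, an unfiltered table, a minimum of 10 counts in each rat, all 32 rats in 1 model, limma 3.58.1 on log2(TPM + 0.1) or log2(TPM + 1), the title number as a block, and without each rat in turn. Both sexes in 1 model with sex as a term was added after seeing the data.

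The members and lists were chosen with earlier results of these data known. The text names the members and Gfap, all matched cyclin-dependent kinase inhibitors, Sesn2 and Sesn3, up to 4 genes of each other pathway list with the smallest FDR in males at P56, and for each member the 3 genes with the highest r by each measure. Exceptions are marked as chosen after their values were seen. Some results that this rule would name are not reported here.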

Additional observations from a re-analysis of the deposited data

Results flagged for a closer look

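Of 35 sets of 4 or 5 rats (the 5 members in each of the 7 groups large enough to be tested), 3 held a rat that stood farther from the others than Dixon's 95% limit, and chance flags about 1 in 20 such sets. Gadd45a was 89.22 normalized CPM in the R237H female R1789B at P21 (gap over range 0.807), and Sesn1 was 38.23 in the same rat (0.739), the lowest of its group. Gadd45b was 21.15 in the R237H male s69-B at P56 (0.839).

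The genotype difference itself differed between P21 and P56, by the interaction test with edgeR's FDR, for Gadd45a in males (2.473, FDR 4.43e-06) and females (2.085, FDR 0.00145), for Cdkn1a in males (1.644, FDR 0.00802) and for Sesn1 in males (-0.573, FDR 0.00128), on the log2 scale.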

How the results depend on the processing

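No called result changed direction under any alternative. Of the members' values under alternatives other than leaving out a rat, 232 kept their side of the threshold, 18 moved inside it and 5 outside it. Without 1 rat, 449 kept it, 4 moved inside and 27 outside. The cause was not tested where none is given. Gadd45b in P56 males moved inside the threshold with the likelihood-ratio test (1.28), DESeq2 (1.25), an unfiltered table (1.29), a minimum of 10 counts in each rat (1.30), all 32 rats in 1 model (1.26), log2(TPM + 0.1) (1.70), log2(TPM + 1) (1.57) and sex as a term (1.21). Sesn1 at P56 moved outside it on log2(TPM + 0.1) (-0.28 in males, -0.45 in females) and log2(TPM + 1) (-0.27 and -0.44). Gadd45g moved outside it in P21 males with all 32 rats in 1 model (1.87), and inside it in P21 females with the likelihood-ratio test (2.40), DESeq2 (2.39), all 32 rats (2.39) and sex as a term (2.12). The age differences in females moved inside it for Cdkn1a (likelihood-ratio 1.44, DESeq2 1.46) and Sesn1 (likelihood-ratio -0.54, DESeq2 -0.52, all 32 rats -0.52).

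The number of genes called was 4208 in P56 males, 4226 in P56 females, 2568 in P21 males, 1184 in P21 females, and 1555 and 333 for the age difference in males and females. All 32 rats in 1 model gave 6377 in P56 males, 1509 in P21 males and 731 for the age difference in females. Sex as a term gave 7436 at P56 and 3453 at P21. DESeq2 gave 1850 in P21 females, 2526 for the age difference in males and 971 in females, where the likelihood-ratio test gave 776.

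Without 1 rat, the counts were 2904 to 4674 (P56 males), 3077 to 4069 (P56 females), 1867 to 2751 (P21 males), 657 to 1354 (P21 females, lowest without WT R1790A), 932 to 2163 (age, males, lowest without R1781I) and 130 to 468 (age, females). Log2 fold changes ran in P56 males from 1.85 to 2.49 for Cdkn1a, 4.78 to 4.99 for Gadd45a, 0.98 to 1.54 for Gadd45b, 1.90 to 2.67 for Gadd45g and -0.70 to -0.62 for Sesn1. In P56 females Gadd45b ran from 1.01 to 1.36. In P21 females Gadd45b ran from 1.05 to 1.53 and Gadd45g from 1.79 to 2.64. Age differences ran for Cdkn1a from 1.46 to 2.09 in males and 1.27 to 1.65 in females, and for Sesn1 from -0.59 to -0.46 in females.

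The number in the rats' titles as a replicate block gave 3254 calls in P56 males (8 rats, 3 residual degrees of freedom), 1791 in P56 females (4 rats, 1) and 1458 in P21 females (5 rats, 2), where Gadd45g was at 1.74 (FDR 0.00153). The labels do not say that a number marks a litter. Same-numbered rats had correlations of deviations of 0.281, -0.0105, -0.0503 and -0.00434 in P56 males, 0.0775 and 0.529 in P56 females, and 0.0123, 0.0852 and 0.458 in P21 females. Not every one was over 0.1, so the numbers were not taken as pairs, although s69-C with s69-D and R1797D with R1797C had the highest values of all rats compared. All P21 males share 1 number, so no block could be fitted there. With 3 to 5 rats a group, the wide intervals of Gadd45b and Gadd45g limit what can be said of them.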
